A study of Mus musculus with 9 samples.

Results

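The genes described are 10 mouse genes for mitogen receptors and their ligands in muscle cells: the fibroblast growth factor (FGF) receptors Fgfr1, Fgfr2 and Fgfr4 with the ligand Fgf2, the hepatocyte growth factor receptor Met with its ligand Hgf, the ERBB receptors Egfr, Erbb2 and Erbb3, and the insulin receptor Insr. They were taken by symbol from a fixed list, and all 10 were found among the 46078 genes listed for cultured cells and the 38293 listed for muscle. RNA sequencing of 9 C57BL/6 mouse libraries was used: 2 of primary myoblasts (MB), 2 of myotubes (MT), 2 of MB treated with lactate and 3 of gastrocnemius muscle (GAS). MB were grown in 10% horse serum, 20% fetal bovine serum and 10 ng/ml basic FGF, which is the protein product of Fgf2. Lactate-treated MB received 10 mM sodium-L-lactate in that medium and the controls the same amount of PBS, before RNA was taken after overnight conditions. MT had been moved to 2% horse serum, with no FGF named for that medium, for 3 days of differentiation. GAS was whole muscle of female mice aged 8 to 12 weeks, so that fibers, vessels, nerve and connective tissue are read together. MB and MT are primary cultures, and fewer cells of a type cannot be told apart from less RNA per cell in any of these libraries.

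Receptor tyrosine kinases are membrane proteins that pair up when a ligand binds, phosphorylate each other and pass the signal on to the RAS-ERK and PI3K-AKT pathways. In muscle, FGF2 and HGF are known as mitogens that activate satellite cells, keep myoblasts dividing and hold back differentiation, and withdrawal of serum and mitogens is the usual way to make cultured myoblasts fuse. ERBB2 and ERBB3 act together as the receptor for neuregulins, since ERBB3 has little kinase activity and ERBB2 has no known ligand of its own. The insulin receptor serves metabolism in fibers more than division.

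Total counts were between 5198247 and 10839516 in the libraries of cultured cells and between 19307793 and 19941574 in GAS. A count of 3, taken as the limit that a count of 0 allows, was worth between 0.277 and 0.577 CPM (counts scaled to a common library size) in cultured cells and at most 0.155 CPM in GAS, for counting error alone. The labels were checked against markers. All 6 differentiated muscle markers rose in MT, from a summed level of 79.5 to 180.3 CPM in MB to between 10623 and 11955 CPM in MT, and 126566 to 142727 CPM was found in GAS. Of the 4 myoblast markers 1 was called lower in MT and 3 were not called, with log2 fold changes from -4.11 to 2.05. The satellite cell gene Pax7 was among those that fell. Their summed level was 932 to 2133 CPM in MB and 1603 to 3175 CPM in MT, so that the sum did not separate the groups. Replicate 1 of MT stood apart: 28599 genes had a count there against at most 17965 in any other cultured library, and 8918 genes were counted in no other cultured library. The summed level of the 5 fibroblast markers was 14210 and 1831 CPM in replicates 1 and 2 of MT against 8.93 to 18.8 CPM in MB, with Col1a1 and Dcn called higher among 4 tested and Lum at 0 in MB. Endothelial, leukocyte and adipocyte markers were too low to be tested in cultured cells. Replicate 1 of MT still had summed levels of 11.8 CPM for endothelial, 10.9 for leukocyte and 16.4 for mural markers. In replicate 2 of MT these were 0.246, 0.982 and 1.23 CPM, and in MB at most 0.263, 1.31 and 4.12 CPM. Counts of CT010467.1, annotated as ribosomal RNA, were 9.20% of the total in replicate 1 of MB and 13.8% in replicate 1 of lactate-treated MB, against 0.131% to 0.575% in the other cultured libraries.

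Promoter sequence was available for 7 of the 10 genes in the RefSeq table for GRCm38.p6, which holds 300 bases around each start, 250 before and 50 after it. The sequences shown are those of Egfr and Met, since these receptor genes were called in opposite directions between MB and MT, as described after them. Capitals mark a GC box, GGGCGG, or an AP-1 site, TGANTCA, read on either strand. For both genes the stretch ends where the first annotated transcript begins, in RefSeq or GENCODE, and for Met 30 bases around the AP-1 site are added. The Egfr stretch is chr11:16751953-16752202 and the Met stretches are chr6:17463707-17463799 and chr6:17463892-17463921, all in GRCm38.p6 and on the plus strand.
Egfr, before the start: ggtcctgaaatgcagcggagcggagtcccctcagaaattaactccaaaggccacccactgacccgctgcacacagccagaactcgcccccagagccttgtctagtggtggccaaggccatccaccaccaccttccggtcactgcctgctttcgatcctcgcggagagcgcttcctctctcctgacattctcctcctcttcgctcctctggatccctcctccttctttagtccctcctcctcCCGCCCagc
Met, before the start: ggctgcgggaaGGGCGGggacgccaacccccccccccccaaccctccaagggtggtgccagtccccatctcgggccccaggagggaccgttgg
Met, around the AP-1 site: tgttgcccggcTGAGTCAcgggccgggcag

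The Met window held 1 AP-1 site, at base -54 from the RefSeq start, a pattern found in 7.81% of 32851 promoter windows of the same length. It also held 3 GC boxes and 2 E-boxes, CANNTG, which are found in 35.7% and 72.3% of windows. The Egfr window had 1 GC box at base -9 and no match to the other patterns. The E-box form CAGCTG, often bound by myogenic factors and present in 16.3% of windows, was in none of the windows of the 7 genes. Of the other genes, Fgfr4 had 4 GC boxes and 2 E-boxes, Fgf2 had 1 GC box, Hgf had 2 E-boxes, Fgfr2 had 3 and Erbb2 had 1. AP-1 sites and GC boxes were searched on both strands, E-boxes read the same on both, and a CAGCTG match would also count as an E-box. These matches are letters in a window and were not tied to the expression values.

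MT were compared with MB to ask which mitogen receptors differ between them. MT were also in less serum, with no FGF named, so that differentiation and the change of medium cannot be told apart for any gene. Met was lower in MT, Egfr and Erbb3 were higher, and no other gene of the 10 passed the threshold. Of 9 genes tested, 2 were called higher and 1 lower by edgeR's quasi-likelihood test (Benjamini-Hochberg adjusted p under 0.05 and an absolute log2 fold change over 0.5). Among all 12921 genes tested, 11.0% were called higher and 6.86% lower. The median log2 fold change was 0.45 over the 9 genes and 0.07 over all genes tested. Fgfr4 had too few counts to be tested. P-values measure the spread between libraries labelled as biological replicates, 2 in each group. Where a library was left out, its group had a single library, which the fit takes to vary like those of the other group.

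**Figure D1:**
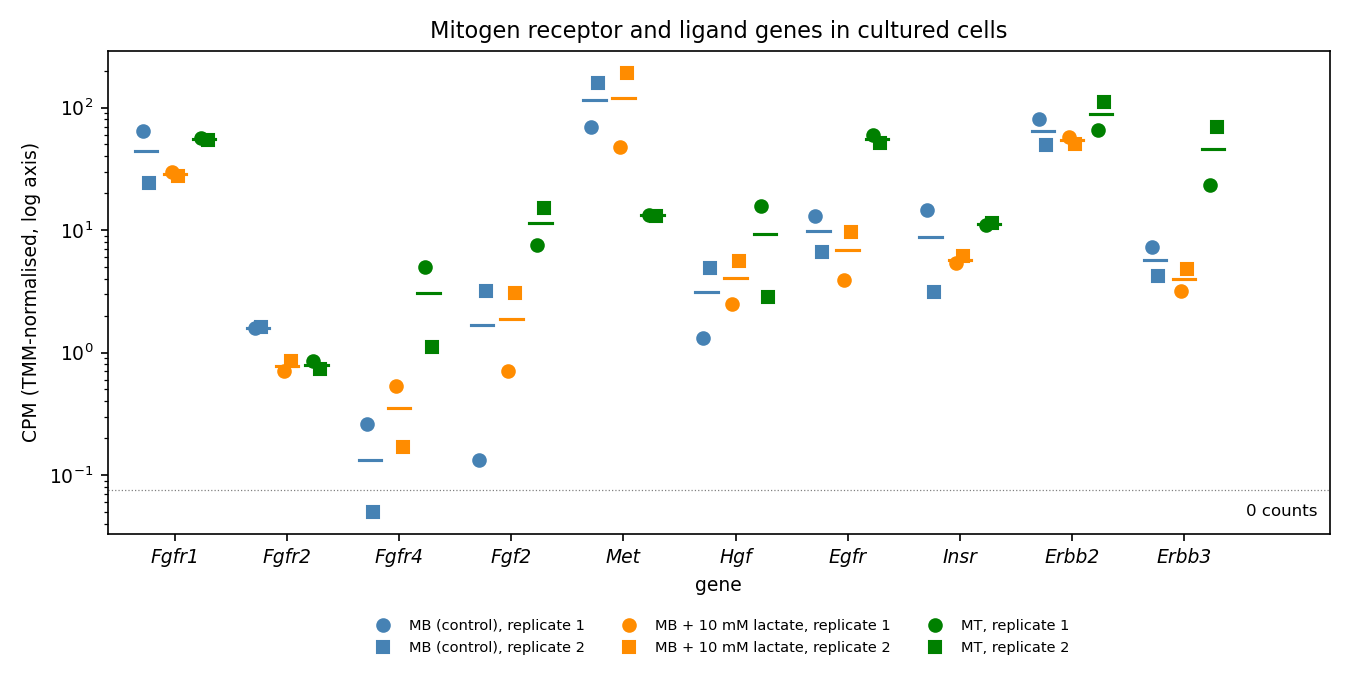
Level of the 10 genes in each library of cultured cells, in TMM-normalised CPM on a log axis. Circles and squares are replicates 1 and 2, and short lines are group means. Met lies at 13.1 and 13.3 CPM in MT, under all MB libraries, while Egfr and Erbb3 lie above them, and the MB_2 library of Fgfr4 had 0 counts.

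The HGF receptor gene Met (ENSMUSG00000009376, chr6:17463800-17573980, plus strand) had the highest mean per length of the 10 genes in MB, though Erbb2 was higher in replicate 1, at 15.4 against 9.10 RPKM. Its level was 69.9 and 160.2 CPM in replicates 1 and 2 of MB, 47.5 and 192.7 CPM in lactate-treated MB and 13.3 and 13.1 CPM in MT. Both MT libraries were below all 4 MB libraries, which spread over a wide range, whereas the MT libraries lay close together. Met was 8.68-fold lower in MT than in MB (log2 fold change -3.12 ± 0.53 SE, n = 2 and 2, edgeR adjusted p = 0.0034). With a library left out, the log2 fold change was between -3.72 and -2.47 and was called each time. Per length, Met went from 15.0 ± 8.32 RPKM (CPM per kilobase of exon, SD, n = 2) in MB to 1.72 ± 0.0103 RPKM in MT. The fibroblast marker sum was 14210 and 1831 CPM in MT against 8.93 to 18.8 CPM in MB, and its part in the value of Met was not tested.

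The ligand gene Hgf (ENSMUSG00000028864, chr5:16553495-16620152, plus strand) encodes the secreted protein that binds Met. It was at 1.31 and 4.92 CPM in MB, 2.49 and 5.63 CPM in lactate-treated MB and 15.6 and 2.83 CPM in MT. The MT range lay across that of MB, since replicate 2 of MT was below replicate 2 of MB. The log2 fold change was 1.58 ± 0.94 (SE, edgeR adjusted p = 0.272), and it was -0.15 without replicate 1 of MT. That library was also the one with the higher fibroblast marker level, and the part of those cells in the value was not tested. Exons of Hgf share 484 bases with Gm43489, which had at most 3 counts in any cultured library and was not among the genes listed for GAS.

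Among the ERBB receptor genes, Egfr (ENSMUSG00000020122, chr11:16752203-16918158, plus strand), the receptor for EGF and related ligands, was at 13.0 and 6.64 CPM in MB, 3.91 and 9.73 CPM in lactate-treated MB and 60.1 and 51.6 CPM in MT. The lowest MT library was well above the highest MB library. Egfr was 5.72-fold higher in MT (log2 fold change 2.52 ± 0.53 SE, n = 2 and 2, edgeR adjusted p = 0.0093), and the log2 fold change was between 2.03 and 2.94, and called each time, with a library left out. Without replicate 1 of MT, where fibroblast markers were highest, the log2 fold change was 2.39. The fibroblast marker sum was still 1831 CPM in replicate 2 of MT, against 8.93 to 18.8 CPM in MB, and its part in the value was not tested.

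Erbb3 (ENSMUSG00000018166, chr10:128567523-128589652, minus strand), the neuregulin-binding partner of ERBB2, was at 7.22 and 4.24 CPM in MB, 3.20 and 4.78 CPM in lactate-treated MB and 23.5 and 68.8 CPM in MT. The MT libraries differed more from each other than for Egfr, and both were above MB. Erbb3 was 8.02-fold higher in MT (log2 fold change 3.00 ± 0.64 SE, n = 2 and 2, edgeR adjusted p = 0.01). Without replicate 2 of MT, the higher library, the log2 fold change was 1.88 and the call was lost (edgeR adjusted p = 0.0789), and without replicate 1 of MT it was 3.58. The fibroblast marker sum was 14210 and 1831 CPM in these MT libraries, and its part in the value was not tested. Erbb3 is also a gene of Schwann cells, and the summed level of the 4 Schwann markers was 6.94 and 0.982 CPM in replicates 1 and 2 of MT against 1.05 and 2.75 CPM in MB, where Sox10 was at 0.

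Erbb2 (ENSMUSG00000062312, chr11:98412470-98437716, plus strand), the shared partner of the other ERBB receptors, was abundant in all cultured libraries. It was at 80.1 and 49.5 CPM in MB, 57.8 and 50.9 CPM in lactate-treated MB and 65.6 and 111.6 CPM in MT, so that the groups overlapped. The log2 fold change of MT against MB was 0.45 ± 0.46 (SE, edgeR adjusted p = 0.536, 95% interval -0.57 to 1.48). It was -0.13 without replicate 2 of MT. Its exons overlap those of Mien1, on the opposite strand, by 9 bases.

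Levels per length allow the ERBB receptors to be set against each other in a library. Erbb2 made up 86.7% and 88% of the summed RPKM of Egfr, Erbb2, Erbb3 and Erbb4 in MB, 92.7% and 85.5% in lactate-treated MB and 55.8% and 57.3% in MT. Erbb3 took 6.77% and 6.52% in MB and 17.3% and 30.6% in MT, and Egfr 6.48% and 5.43% in MB and 23.5% and 12.2% in MT. Erbb4 was at most 3.36% in any cultured library. The sum of the family was 17.7 and 10.8 RPKM in MB and 22.6 and 37.4 RPKM in MT. In GAS, where the sum was between 1.86 and 1.94 RPKM, Egfr held 39.6% to 50.8% and Erbb2 18.2% to 35.2%. The protocol of GAS differed and it was normalised apart, so that its sum gives no fold against the cultured cells. The shares are a description and were not tested.

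**Figure D2:**
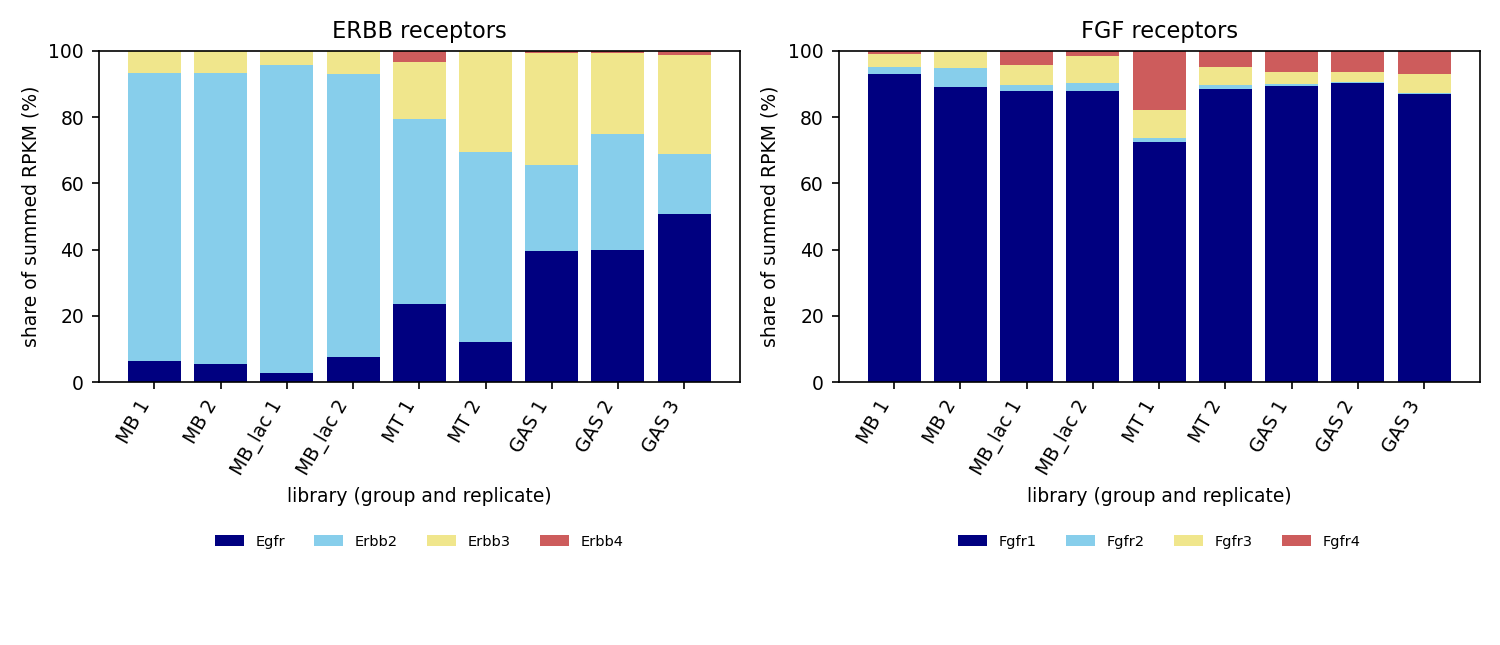
Share of each receptor in the summed RPKM of its family (y axis, %) in each library, for ERBB receptors on the left and FGF receptors on the right. Erbb2 makes up 55.8% to 92.7% of the ERBB sum in cultured cells and Fgfr1 makes up 72.6% to 92.8% of the FGF receptor sum. GAS was sequenced by another protocol than the cultured cells.

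Of the FGF receptor genes, Fgfr1 (ENSMUSG00000031565, chr8:25513654-25575718, plus strand) was the main form. It was at 64.2 and 24.1 CPM in MB, 29.5 and 27.8 CPM in lactate-treated MB and 56.6 and 54.4 CPM in MT. Both MT values lay between those of the MB libraries, and the log2 fold change was 0.34 ± 0.52 (SE, edgeR adjusted p = 0.694, 95% interval -0.82 to 1.49). Its sign changed without replicate 2 of MB, to -0.28. Fgfr1 accounted for 92.8% and 89.1% of the summed RPKM of Fgfr1, Fgfr2, Fgfr3 and Fgfr4 in MB and for 72.6% and 88.6% in MT. An antisense gene, Gm16159, shares 164 exonic bases with Fgfr1 and had between 0 and 27 counts in a library.

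Fgfr2 (ENSMUSG00000030849, chr7:130162451-133123350, minus strand) was hardly detected. It had 12 and 14 counts in MB, 4 and 5 in lactate-treated MB and 11 and 6 in MT, which was 1.58 and 1.60 CPM, 0.711 and 0.853 CPM, and 0.857 and 0.737 CPM. The MT and MB ranges did not overlap, but the log2 fold change of -0.97 ± 0.87 (SE) was not called (edgeR adjusted p = 0.479). Its annotated locus is long and shares 314 exonic bases with Ctbp2, which had 67 to 152 counts in the cultured libraries.

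Fgfr4 (ENSMUSG00000005320, chr13:55152640-55168759, plus strand), a receptor known from differentiating and regenerating muscle, had 2 and 0 counts in MB, 3 and 1 in lactate-treated MB and 64 and 9 in MT. In CPM, MT had 4.99 and 1.11 against at most 0.263 in MB. The summed counts of 73 in MT against 2 in MB gave a ratio of 28.4, with an exact interval of 7.60 to 239.3 that covers counting error only. The ratio compares these libraries and has no p-value. With no filter on low counts the gene was tested on the same 4 libraries and was not called (log2 fold change 4.46, edgeR adjusted p = 0.469). Replicate 1 of MT, with most of the counts, was the library that stood apart. It was called higher with replicate 2 of MT left out (log2 fold change 5.04, edgeR adjusted p = 0.0102), where MT is that library alone and the spread comes from MB, and was not called with a library of MB left out (adjusted p = 0.318 and 0.597). Fgfr4 made up 17.8% and 5.02% of the FGF receptor RPKM in MT and at most 1.06% in MB.

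The ligand gene Fgf2 (ENSMUSG00000037225, chr3:37348346-37410108, plus strand) was at 0.131 and 3.21 CPM in MB, 0.711 and 3.07 CPM in lactate-treated MB and 7.48 and 15.2 CPM in MT. The groups did not overlap, while the MB libraries, with 1 and 28 counts, were far apart. The log2 fold change was 2.73 ± 1.04 (SE, n = 2 and 2) and was not called by edgeR's quasi-likelihood test (adjusted p = 0.0959). It was called by the DESeq2 Wald test (adjusted p = 0.0303), by edgeR's likelihood ratio test (adjusted p = 0.0326), with no filter on low counts (adjusted p = 0.0245), without replicate 1 of MT (adjusted p = 0.0132) and without replicate 2 of MB (adjusted p = 7.7e-05). It was not called without replicate 2 of MT (edgeR adjusted p = 0.151), without replicate 1 of MB (adjusted p = 0.196) or with all 6 cultured libraries in the fit (adjusted p = 0.127). With a library left out its log2 fold change was between 1.70 and 6.25. Fgf2 exons share 640 bases with Nudt6, on the opposite strand, which had 27 and 18 counts in MT and 14 and 10 in MB. Since use of strand in the counting was not given in the sources used here, reads from that stretch cannot be told apart.

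Insr (ENSMUSG00000005534, chr8:3122061-3279617, minus strand) was at 14.6 and 3.09 CPM in MB, 5.33 and 6.14 CPM in lactate-treated MB and 11.1 and 11.4 CPM in MT. As for Fgfr1, the MT libraries lay between the MB libraries. The log2 fold change was 0.36 ± 0.73 (SE, edgeR adjusted p = 0.773, 95% interval -1.25 to 1.97), and it was -0.44 without replicate 2 of MB. In all, 5 of the 9 tested genes had groups that did not overlap (higher for Egfr, Erbb3 and Fgf2, lower for Met and Fgfr2). With 2 libraries a group this held for 62.3% of all genes tested.

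**Figure D3:**
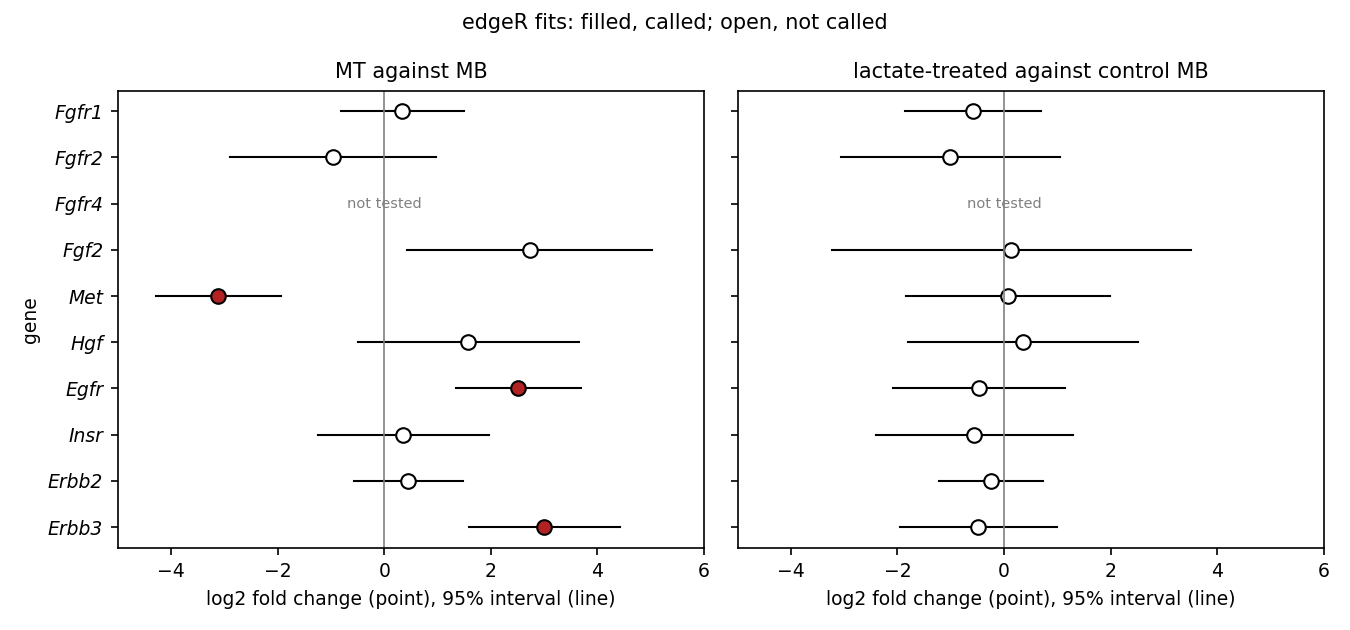
Log2 fold change (x axis) of each gene in edgeR's fits, MT against MB on the left and lactate-treated against control MB on the right, with 95% intervals as lines. Filled points were called, open points were not. Met at -3.12, Egfr at 2.52 and Erbb3 at 3.00 are called on the left, and no gene is called on the right.

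Libraries with replicate number 1 and 2 of MB and of lactate-treated MB differed in the same way for several of these genes. Met, Hgf and Fgf2 were lower in replicate 1 than in replicate 2 in both groups, and Erbb2 and Fgfr1 were higher. Egfr, Insr and Erbb3 went opposite ways, higher in replicate 1 of MB and lower in replicate 1 of lactate-treated MB. The replicate 1 libraries were those with the large share of CT010467.1 counts, and its part in the values was not tested.

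Lactate-treated MB were compared with control MB to ask whether lactate alters these genes. None of the 9 genes tested was called, and among all 11804 genes tested 0% were called higher and 0% lower. With edgeR's quasi-likelihood test 5 genes of the whole table and none of these 9 were under an unadjusted p of 0.05. DESeq2 gave 3 genes and edgeR's likelihood ratio test 11. A share of 0.05 of all genes would be under that limit with no change at all, so that these p-values ran too high. The count of the whole table was 511 without replicate 2 of MB, 74 without replicate 1 of MB, and 22 and 103 without replicates 1 and 2 of lactate-treated MB, and none of the 9 genes was among them. Log2 fold changes ran from -1.0 for Fgfr2 to 0.35 for Hgf, with a median of -0.47 over the 9 genes and -0.003 over all genes, each with an edgeR adjusted p of 1.00. In this fit, which has no replicate block, the intervals were wide, so that sizable changes were not detectable by it. Same-numbered libraries deviated alike (r = 0.696), and without a block that difference stays in the spread between replicates. The 95% interval was -1.84 to 1.98 for Met, -1.86 to 0.69 for Fgfr1 and -2.08 to 1.15 for Egfr. It was -1.96 to 0.99 for Erbb3 and -3.24 to 3.51 for Fgf2. Erbb2 had the narrowest, from -1.21 to 0.73 around a log2 fold change of -0.24. For Insr the log2 fold change was -0.56, between -2.40 and 1.29. With a replicate block 166 genes of the whole table were under an unadjusted p of 0.05 by edgeR's quasi-likelihood test. The intervals were then narrower, at -0.78 to 0.51 for Met, -1.27 to 0.34 for Fgfr1 and -0.86 to 0.42 for Erbb2. That for Fgf2 was still -1.14 to 1.92. With the block and all 6 cultured libraries in the fit, the interval for Met was -1.20 to 1.06. Fgfr2 was the single tested gene of the 9 with groups that did not overlap, at 4 to 14 counts, and 11.0% of all genes tested had such groups. For Fgfr4 no fold is given, since no library of either group had more than 3 counts.

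GAS levels are given apart from the cultured cells, because poly(A) RNA was sequenced for GAS and Smart-seq2 was used for cells in culture. In GAS the genes fell over a wide range. Fgfr1 was highest, at 10.1, 10.9 and 11.1 RPKM in replicates 1 to 3 (10.7 ± 0.513, SD, n = 3), a level above that of 92.8% of the 36429 genes with a length. Many of those genes were hardly detected, since Hgf, with 1 to 4 counts, was above 51.1% of them. Among the 9874 genes with a mean over 1 RPKM the median was 4.61 RPKM. Insr followed at 6.55, 6.60 and 6.33 RPKM (6.49 ± 0.142, SD, n = 3) and Met at 2.25, 1.86 and 2.08 RPKM (2.07 ± 0.199, SD, n = 3). These 3 genes had ranges apart from each other and were the members above 1 RPKM.

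Egfr and Fgfr4 came next in GAS at 0.822 ± 0.105 and 0.809 ± 0.0899 RPKM (SD, n = 3), with ranges that overlapped. Below them were Erbb3 at 0.555 ± 0.0845 RPKM, Erbb2 at 0.506 ± 0.172 RPKM and Fgf2 at 0.411 ± 0.134 RPKM (SD, n = 3), each overlapping with its neighbour. Fgfr2, with 7 to 10 counts, and Hgf, with 1 to 4 counts, lay at 0.0412 ± 0.00719 and 0.0190 ± 0.0108 RPKM (SD, n = 3), near the limit of detection, and their ranges were apart. Fgf2 in GAS shares exonic bases with Nudt6, which had 247 to 293 counts there against 34 to 69 for Fgf2. Markers of other cells were present in GAS, with summed levels of 366.0 to 459.3 CPM for fibroblast, 132.3 to 147.3 CPM for endothelial and 19.3 to 36.5 CPM for Schwann cell lists, and the part of such cells in the levels was not tested.

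**Figure D4:**
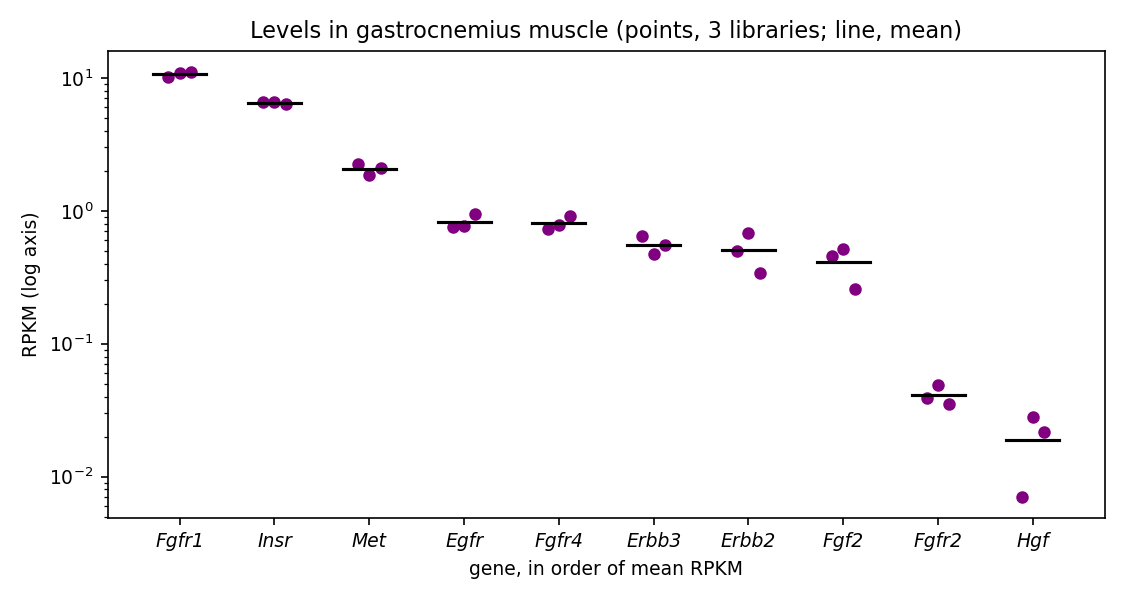
RPKM of the 10 genes in GAS on a log axis, in order of the mean; points are the 3 libraries and lines the means. Fgfr1 at 10.7 and Insr at 6.49 RPKM lead, and Hgf at 0.0190 RPKM is lowest.

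The order per length differed between the libraries of the groups. In MB the group means were highest for Met, Erbb2 and Fgfr1, at 15.0, 12.4 and 4.47 RPKM, with overlapping ranges of Met and Erbb2. Erbb2 was in place 1 in replicate 1 of MB and Met in replicate 2. In MT the group means were highest for Erbb2, Erbb3 and Fgfr1, at 17.0, 7.67 and 5.62 RPKM, with overlapping ranges of Erbb3 and Fgfr1. Erbb2 was in place 1 in both MT libraries, Erbb3 in places 4 and 2, and Met in place 6 in both. Insr was in place 2 in all 3 GAS libraries, in places 6 and 8 in MB and in places 9 and 7 in MT. Since protocols differ, the place in each library is given and not a fold between GAS and cells.

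The other genes of these pathways were taken from lists chosen with earlier results known, and their MT against MB values are given as counts. Over all genes tested 11.0% were called higher and 6.86% lower, which are the shares to set beside the counts of each list. Of 18 FGF ligand genes 6 were tested and 2 were called higher, none lower, with a median log2 fold change of 2.75 beside 0.07 over all genes. In lactate-treated against control MB only 2 of the 18 were tested. Genes near 0 counts in MB pass the filter on low counts through MT alone, so that their rise is set by the filter. The median and the count called higher are therefore no measure of a common rise, and such genes in the other lists share this limit. Fgf9 had 131 and 50 counts in MT and 0 in both MB libraries, at least 47.0-fold higher against 3 counts over the group. Fgf1, an FGF that lacks a signal peptide, was also near 0 in MB, at 0.443 ± 0.302 CPM against 4.56 ± 1.71 CPM in MT (SD). Its log2 fold change was 3.34 ± 0.98 (SE). Of 16 FGF receptor and coreceptor genes 11 were tested, 2 were called higher and 1 lower, with a median of 0.89. The glypicans Gpc4 and Gpc1, heparan sulfate proteins of the cell surface, rose by 2.40 ± 0.51 and 1.58 ± 0.48, and the syndecan Sdc3, a satellite cell proteoglycan, fell by 2.04 on the log2 scale (SE 0.45).

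In the HGF and MST1 system 6 of 13 genes were tested, 1 was called higher and 2 lower, with a median of -0.97. Of the log2 fold changes 3 were over 0 and 3 under it. Beside Met, Plaur, the urokinase receptor, fell by 2.33 on the log2 scale (SE 0.44). Of 11 EGF family ligand genes 7 were tested, and Areg, an EGFR ligand, was called lower, from 30.7 ± 9.63 CPM in MB to 1.81 ± 0.910 CPM in MT (log2 fold change -4.10 ± 0.65 SE, edgeR adjusted p = 0.0023); the median was -0.40. Among 12 genes of ERBB receptors and regulators 11 were tested and Egfr and Erbb3 were the 2 called, both higher, with a median of 0.60.

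Of 12 genes of the insulin receptor and its adaptors 11 were tested and 2 were called higher, with a median of 0.25. Slc2a4, the insulin-responsive glucose transporter, rose by 3.77 ± 0.79 on the log2 scale. Enpp1, a membrane pyrophosphatase that can bind the insulin receptor, had 1744 and 678 counts in MT against 2 and 0 in MB. The ratio was 943.9, with an exact counting interval of 261.0 to 7798. In the RAS-ERK cascade with its adaptors 1 of 25 tested genes was called, the kinase gene Araf, which rose by 1.45 ± 0.42, and the median was -0.21. In the PI3K-AKT list 2 of 10 were called, the regulatory subunits Pik3r3 and Pik3r1, which rose by 2.64 ± 0.54 and 2.17 ± 0.52, with a median of 0.86.

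Genes known as feedback regulators of ERK signaling or as targets of its ETS factors moved in both directions, with 2 higher and 3 lower among 17 tested of 18 and a median of -0.88. Lower in MT were Etv4, an ETS factor, at 79.8 ± 17.1 CPM in MB and 5.89 ± 5.57 CPM in MT (log2 fold change -3.79 ± 0.72 SE, edgeR adjusted p = 0.0057), Dusp5, an ERK phosphatase (log2 fold change -3.32 ± 0.65), and Dusp4, a further phosphatase of MAP kinases (-2.00 ± 0.55). Higher in MT were Spry1, a Sprouty inhibitor of receptor signaling, with a log2 fold change of 3.35 ± 0.79, and Egr1, an immediate early factor, with 1.71 ± 0.53 (edgeR adjusted p = 0.0482).

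**Figure D5:**
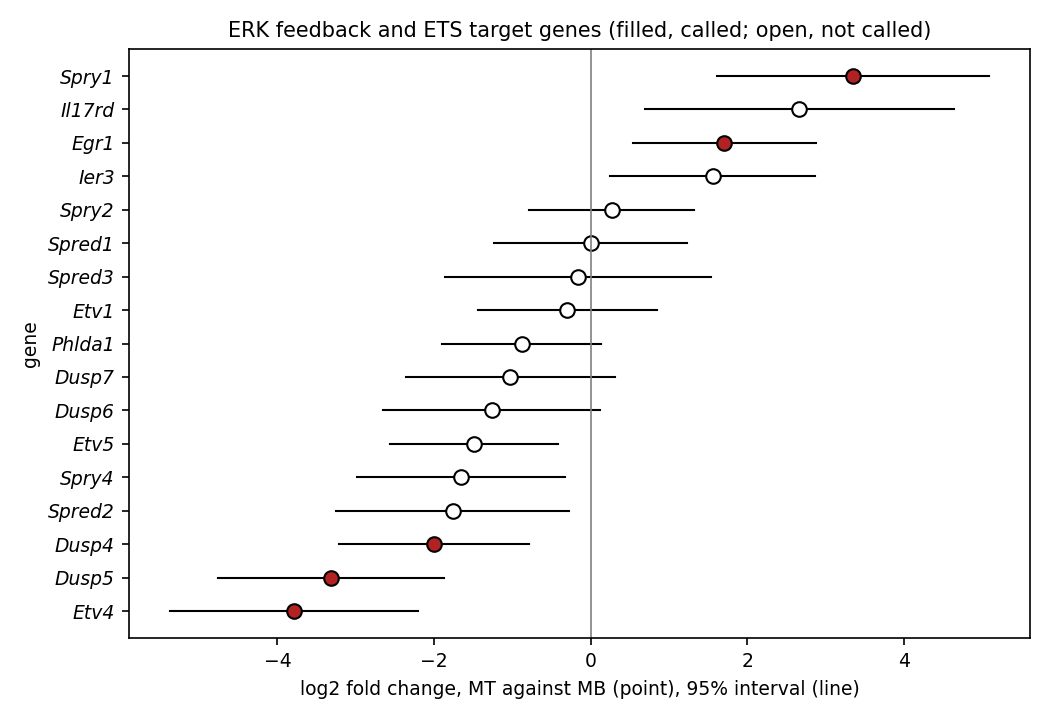
Log2 fold change of MT against MB (x axis) for the 17 tested genes of the ERK feedback and ETS target list, with 95% intervals as lines. Etv4, Dusp5 and Dusp4 were called lower and Spry1 and Egr1 higher (filled points), and the other genes were not called.

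Among 50 other receptor tyrosine kinase genes 28 were tested, 7 were called higher and 2 lower, with a median of 0.40. The shares over all genes tested were 11.0% higher and 6.86% lower. The ephrin receptors with the largest rises were Ephb1 and Epha3. Ephb1 had 90 and 15 counts in MT and 0 in both MB libraries, at least 27.3-fold higher against 3 counts over the group. Epha3 had 296 and 45 counts against 0 and 1. For Epha3 the ratio was 265.8, with an exact counting interval of 47.4 to 10528. Aatk had 47 and 12 counts against 1 and 0, a ratio of 46.0 with an interval of 7.94 to 1847. Epha2, a further ephrin receptor, fell by 2.78 on the log2 scale (SE 0.48), and Styk1 fell by 2.56 (SE 0.64). For Ephb1, Epha3 and Aatk most counts came from replicate 1 of MT.

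In lactate-treated against control MB no gene of these 10 lists was called, and the medians of the lists were between -0.35 and 0.35 on the log2 scale. The genes with the pattern most like that of Erbb3 over the 6 cultured libraries, by Pearson's r of log2 CPM among 13104 genes, were Kif26b (r = 0.999), Stard13 (r = 0.998) and Igfn1 (r = 0.997). For Met they were ENSMUSG00000097769 (r = 0.997), Ing5 (r = 0.996) and Pced1b (r = 0.995). With 6 libraries in 3 groups these correlations follow both the difference between MT and MB and that between replicates, and are a description. ENSMUSG00000097769, like Met, was lower in replicate 1 than in replicate 2 of MB, at 33.9 and 57.8 CPM. Kif26b, like Erbb3, was lower in replicate 1 of MT, at 17.6 and 44.5 CPM.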

How the data were processed

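RNA sequencing of mouse GAS (3 libraries), MB, MT and lactate-treated MB (2 each) was used. The authors trimmed reads with TrimGalore 0.6.6, aligned them to mm10 with HISAT2 2.2.1 and counted them on genes with featureCounts of Subread 2.0.1, so that each deposited file gives the raw count of a library for every gene, not normalised. The annotation release and the handling of strand and of reads over several genes are not given in the sources used here. GENCODE M21, on the same assembly, gave symbols, coordinates and the lengths of exons.

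CPM were TMM-normalised, for GAS and cultured cells apart, and RPKM divide CPM by the union length of a gene's exons. MT against MB and lactate-treated against control MB were each fitted on their 4 libraries with edgeR 4.0.16 (filterByExpr, TMM, quasi-likelihood test, Benjamini-Hochberg adjustment), and genes were called at an adjusted p under 0.05 with an absolute log2 fold change over 0.5. GAS was not tested against cultured cells. DESeq2 1.42.0 and limma 3.58.1 with R 4.3.3, and Python 3.11.15 (pandas 2.3.3, scipy 1.17.1, numpy 2.4.6, matplotlib 3.10.9), were also used. Alternatives were other size factors, tests, filters and thresholds, a joint fit of the 6 cultured libraries, a replicate block, another gene length and each library left out.

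The 10 genes and all gene lists were chosen with earlier results of these data known. Genes named beside them are, of each list, up to 3 called genes per direction, by size of change in MT against MB, the 3 genes correlating best with the called members of largest rise and fall, and genes with exons overlapping a member's. In lactate-treated MB the 10 genes alone are named. A gene named by this rule is left out and not reported here.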

Additional observations from a re-analysis of the deposited data

How the results depend on the processing

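With 2312 genes called in MT against MB, 1444 were called when at least 10 counts in every library were asked for, where fewer genes were tested, and between 1232 and 4921 with a library left out, the lowest without replicate 1 of MT and the highest without replicate 2 of MT. The other alternatives gave between 2059 and 3251 calls. Met and Egfr were called in every fit, Erbb3 in every fit but that without replicate 2 of MT, and 3 or 4 of the 10 genes were called in each. The others called were Fgf2, as given above, and, without replicate 2 of MT, Fgfr4 (log2 fold change 5.04, edgeR adjusted p = 0.0102). With a replicate block 2271 genes were called, and Fgf2 was called as well (log2 fold change 3.43, edgeR adjusted p = 0.0043; with all 6 libraries and the block 3.40, adjusted p = 0.0285). The block changed no other call among the 10 genes. Deviations of same-numbered libraries correlated at -0.100 in MT against MB, over 2 pairs, so that pairing was not established there. In lactate-treated against control MB they correlated at 0.696, also over 2 pairs, so that same-numbered libraries deviated alike. What these libraries share was not tested. With the numbers crossed, an alternative chosen after seeing the data, 2059 genes were called. Signs turned without replicate 2 of MB for Fgfr1 (-0.28; over the fits with a library left out -0.28 to 1.08) and Insr (-0.44; -0.44 to 1.74), without replicate 1 of MT for Hgf (-0.15; -0.15 to 2.71) and without replicate 2 of MT for Erbb2 (-0.13; -0.13 to 0.78), and the cause was not tested.

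In lactate-treated MB 0 genes were called in every fit but that without replicate 1 of MB, where 2 were (0 to 2 over the libraries left out), and none of the 10 genes in any; at a nominal p under 0.01 the count was 0, the replicate block gave 7 higher and 6 lower (and 166 under an unadjusted p of 0.05), while 176 were higher and 1 lower without replicate 2 of MB and 19 higher without replicate 1 of MB. Log2 fold changes ran over 0 with a library left out for Fgfr1 (-1.07 to 0.24), Fgf2 (-1.37 to 3.79), Met (-1.39 to 0.93), Hgf (-0.45 to 1.74), Egfr (-1.37 to 0.10), Insr (-1.24 to 0.88) and Erbb2 (-0.47 to 0.12), and Met was at -0.14 with the replicate block and -0.069 with the block and all 6 libraries. By the length of the longest transcript, which is shorter than the union of exons, the GAS level was 21.0 RPKM for Fgfr1, 9.54 for Insr, 2.33 for Met, 0.0960 for Fgfr2 and 0.0393 for Hgf; library totals in place of TMM and leaving out a GAS library moved no level by more than 1 SD.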
